A study of Homo sapiens with 2 samples.

Results

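The proteasome genes of NUGC4 cells, a human gastric cancer line, were compared between 1 array of cells given a control siRNA and 1 array of cells given an siRNA against ANO5, the gene of the membrane protein anoctamin 5. Both cultures received siRNA at 20 nmol/l, transfected 24 h after seeding. The members are all genes whose symbol begins with PSM, a letter from A to G and a number. Of 14526 named genes 48 matched, each through 1 transcript cluster, the group of probes by which the array reads a gene. Of these, 43 encode proteasome subunits, activators, an inhibitor or assembly factors, and 5 match the pattern without encoding any of these. Each value is 1 array's log2 signal, each difference is the value with the ANO5 siRNA minus that of the control, and with 1 array per group there is no spread between cultures to test a difference against.

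The proteasome degrades proteins that carry ubiquitin chains. Its barrel-shaped core particle is built of stacked rings of alpha and beta subunits, and 3 of the beta subunits, those of PSMB5, PSMB6 and PSMB7, cut proteins. The regulatory particle caps the barrel. Its base holds a ring of ATPases that unfolds the substrate, and its lid removes the ubiquitin. In cells exposed to interferon, the immunoproteasome subunits of PSMB8, PSMB9 and PSMB10 take the place of the constitutive cutting subunits and favour peptides that fit MHC class I. Dedicated chaperones assemble the core and the base, and the transcription factor NRF1, product of NFE2L1, induces the subunit genes when proteasome activity is short.

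Most proteasome genes differed little between the arrays. The median over the 43 was -0.03, beside 0.03 over all named genes, and 32 lay within 1.5-fold. By 1.5-fold or more (a log2 difference of at least 0.585) 7 were higher and 4 lower with the ANO5 siRNA, where 18.6% of all named genes were higher and 16.6% lower. After a loess fit, which removes a trend of the difference with the mean level, this split was 5 higher and 6 lower. Of the genes whose mean level reached the 33rd percentile of the named genes (6.05), 23.2% were higher and 20.1% lower, and 42 of the 43 proteasome genes lay in that range. Together 25.6% of the 43 passed 1.5-fold, beside 35.2% of all named genes and 43.3% of those in the measured range. At 2-fold, 1 gene was higher (PSMC4) and 3 were lower (PSMD8, PSMG1 and PSMB9), beside 8.33% higher and 8.35% lower of all named genes and 11.2% and 11.3% of those in the measured range. The quartiles of the members' differences were -0.17 and 0.34, beside -0.45 and 0.57 over the 7574 genes that spanned the same range of mean levels, from 7.53 to 14.66. The gene below that range was PSMB11.

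**Figure D1:**
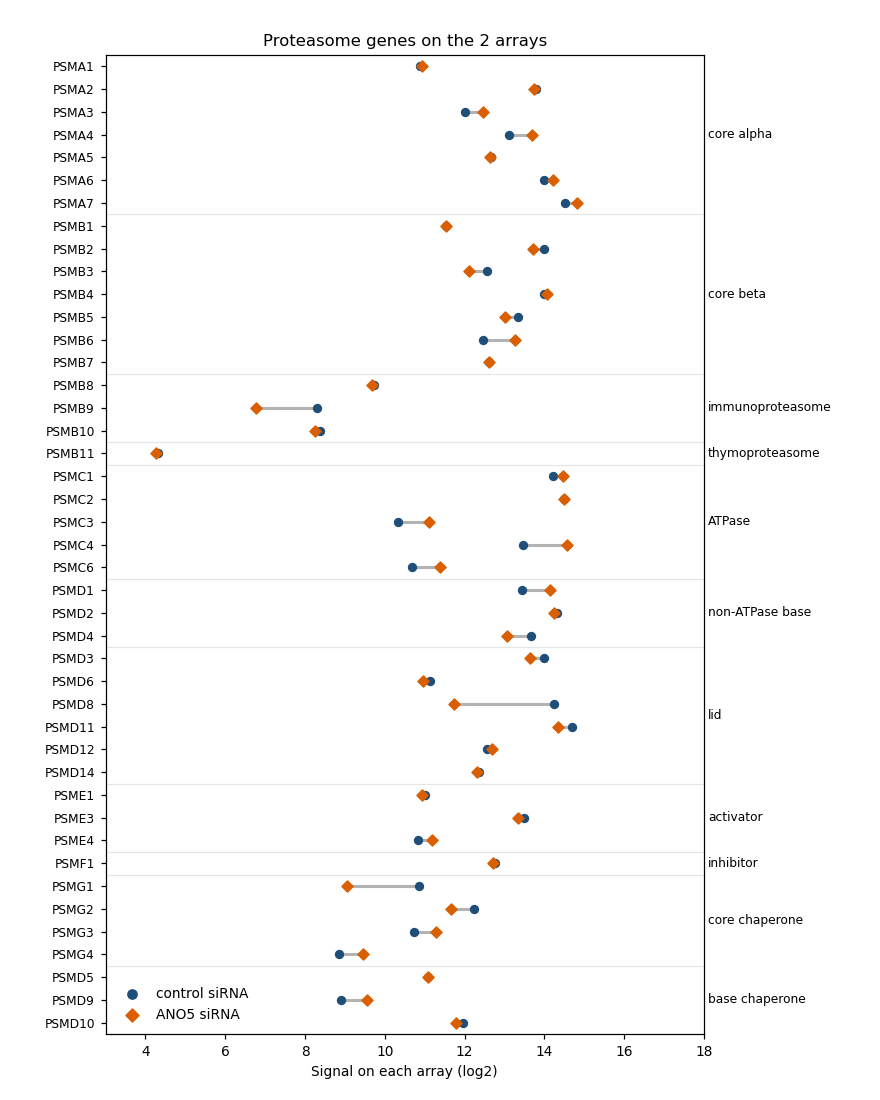
Log2 signal of the 43 proteasome genes on the control siRNA array (circles) and the ANO5 siRNA array (diamonds), grouped by class, with a line joining the arrays. Most symbols overlap or nearly so, while PSMD8, PSMG1 and PSMB9 sit well to the left with the ANO5 siRNA and PSMC4 to the right.

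The 4 genes past 2-fold belong to 4 different classes: a lid subunit, a chaperone of the core, an immunoproteasome subunit and an ATPase. Their promoters are shown to set the sequences of these genes, which differed most, side by side. Each line gives the 250 bases before the annotated start, 5′ to 3′ on the gene's strand, from RefSeq on GRCh38.p14. Capitals mark TGACNNNGC, the core of the antioxidant response element that NRF1 and related factors bind, and CCAAT, a common promoter box, on either strand. The PSMG1 and PSMB9 windows hold 1 match to TGACNNNGC each, those of PSMD8 and PSMC4 hold 0, and CCAAT is found once in PSMD8, PSMG1 and PSMB9. The share of G and C was 54.0% in PSMD8, 70.8% in PSMG1, 67.2% in PSMB9 and 64.8% in PSMC4.
PSMD8, chr19:38374321-38374570, plus strand: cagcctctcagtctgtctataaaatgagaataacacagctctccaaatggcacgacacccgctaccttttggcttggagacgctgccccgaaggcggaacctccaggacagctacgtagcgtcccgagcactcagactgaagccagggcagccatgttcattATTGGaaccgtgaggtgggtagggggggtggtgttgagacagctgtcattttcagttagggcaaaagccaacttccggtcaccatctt
PSMG1, chr21:39183452-39183701, minus strand: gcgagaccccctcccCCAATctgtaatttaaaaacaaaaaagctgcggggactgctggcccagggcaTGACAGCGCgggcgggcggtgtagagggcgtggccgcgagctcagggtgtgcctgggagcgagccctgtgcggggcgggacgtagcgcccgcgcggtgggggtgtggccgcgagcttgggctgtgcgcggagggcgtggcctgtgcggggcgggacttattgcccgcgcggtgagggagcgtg
PSMB9, chr6:32853942-32854191, plus strand: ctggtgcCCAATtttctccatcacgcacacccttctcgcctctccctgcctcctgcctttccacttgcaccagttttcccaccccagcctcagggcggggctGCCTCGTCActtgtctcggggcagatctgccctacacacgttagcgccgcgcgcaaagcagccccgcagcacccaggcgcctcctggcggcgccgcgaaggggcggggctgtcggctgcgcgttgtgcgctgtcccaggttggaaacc
PSMC4, chr19:39970915-39971164, plus strand: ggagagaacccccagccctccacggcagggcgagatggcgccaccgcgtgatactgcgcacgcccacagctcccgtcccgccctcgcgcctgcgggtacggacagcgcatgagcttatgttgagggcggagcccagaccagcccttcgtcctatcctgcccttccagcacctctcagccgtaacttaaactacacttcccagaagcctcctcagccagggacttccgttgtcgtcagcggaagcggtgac

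The core alpha subunits form the outer rings of the barrel and gate the entry. Of the 7 measured alpha genes 6 were within 1.5-fold, and PSMA4 passed narrowly at 13.11 in the control and 13.70 with the ANO5 siRNA (difference 0.59). It fell below 1.5-fold in each scaling tried (0.47 to 0.57). PSMA3 read 12.01 and 12.45, PSMA7 14.51 and 14.81, and PSMA6 13.99 and 14.22. PSMA1, PSMA5 and PSMA2 differed by 0.07, -0.03 and -0.05. The alpha median was thus 0.23, with 5 differences above 0 and 2 below (after the loess fit PSMA1 was below 0 as well, at -0.06).

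The constitutive beta genes went both ways around a median of 0.01, which turned below 0 in each scaling tried (-0.13 to -0.01). PSMB6, whose subunit cuts after acidic residues, was the 1 beta gene past 1.5-fold, at 12.46 in the control and 13.26 with the ANO5 siRNA (1.74-fold higher). The other cutting subunits did not share this: PSMB7, with trypsin-like activity, read 12.60 and 12.61, and PSMB5, with chymotrypsin-like activity, 13.35 and 13.01. Of the subunits without cutting activity, PSMB3 differed by -0.45, PSMB2 by -0.28, PSMB4 by 0.08 and PSMB1 by 0.01. After the loess fit PSMB3 passed 1.5-fold (-0.59), and PSMB7, PSMB4 and PSMB1 were below 0 (-0.13, -0.03 and -0.13). Over the 14 alpha and beta genes of the constitutive core the median was 0.04 and the SD over genes 0.35.

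Of the immunoproteasome genes PSMB9 alone passed 1.5-fold. PSMB9 read 8.29 in the control and 6.76 with the ANO5 siRNA, 2.89-fold lower. PSMB8 read 9.74 and 9.67, and PSMB10 8.37 and 8.24, so both stayed close to their control values. PSMB9 takes the place that PSMB6 holds in the constitutive ring, and these partners differed in opposite directions, by -1.53 and 0.80. The ratio of PSMB6 to PSMB9 signal was therefore 5.03-fold higher on the ANO5 siRNA array. The other partner ratios moved little: that of PSMB7 to PSMB10 was 1.10-fold higher and that of PSMB5 to PSMB8 1.21-fold lower. With the ANO5 siRNA 42.2% of all clusters read at or below PSMB9, against 55.5% in the control. PSMB11, the subunit particular to the thymus, read 4.32 and 4.27, values that only 13.5% and 12.9% of the clusters did not exceed. Blood cells carry much immunoproteasome. Both arrays are labelled as the NUGC4 line, and no blood cells are named. Of 10 measured blood cell markers 4 lay in the measured range. Over all 10 the median levels were 5.00 in the control and 4.98 with the ANO5 siRNA. By 1.5-fold 2 were lower and 0 higher (20%, beside 35.2% of all named genes). These were LYZ and CD4, the latter at 4.25 and 2.99, below the measured range. Marker by marker 8 of the 10 were lower, with a median difference of -0.27 (-0.16 with a pseudocount of 32 added to the linear signal). LYZ was the only marker at or above the 50th percentile of mean level, so the median there, -1.08, is its difference alone. PTPRC, which marks all white cells, read 3.68 and 3.49, and LYZ, which gastric cells also make, 10.88 and 9.80. Any link between these markers and the PSMB9 difference was not tested, and RNA of a whole culture does not give the level in each cell.

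**Figure D2:**
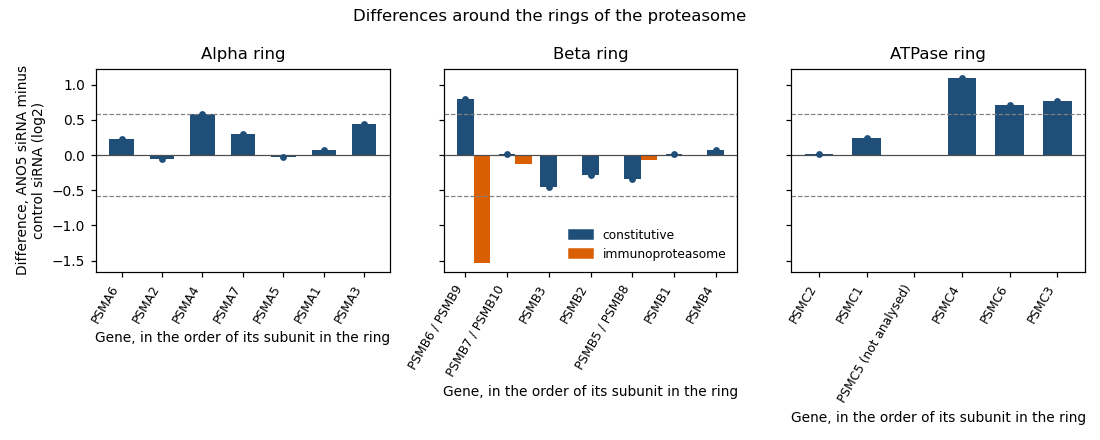
Difference in log2 signal (ANO5 siRNA minus control siRNA) of each gene, placed in the order of its subunit around the alpha, beta and ATPase rings, with immunoproteasome genes beside the constitutive gene whose place they take and dashed lines at 1.5-fold. PSMB6 and PSMB9 point in opposite directions, and the neighbours PSMC4, PSMC6 and PSMC3 are the ATPase genes past the upper line.

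The ATPase genes had the highest class median, 0.72 (1.65-fold), and all 5 measured were at or above their control value. PSMC2 was below it after the loess fit (-0.09) and after scaling to the 75th percentile (-0.01). Of the 9735 genes in the measured range 5263 were above their control value and 4405 below. By 1.5-fold 3 of the 5 ATPase genes were higher and 0 lower (60%, beside 43.3% of genes in the measured range). PSMC4 read 13.47 in the control and 14.57 with the ANO5 siRNA (2.14-fold higher), PSMC3 10.34 and 11.11 (1.71-fold), and PSMC6 10.67 and 11.39 (1.65-fold). These encode subunits that stand next to each other in the ring. PSMC1 read 14.21 and 14.46, and PSMC2 14.49 and 14.50. After the loess fit the ATPase median was 0.59. The PSMC5 gene of the remaining place was not analysed here. RefSeq lists 13 pseudogenes of PSMC1, 3 of PSMC6, 2 of PSMC2 and 1 of PSMC3, and whether probes share signal with them was not tested.

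The base also holds large scaffold proteins and a ubiquitin receptor. PSMD1, a scaffold, read 13.43 and 14.14 (1.64-fold higher), whereas PSMD2, its partner scaffold, read 14.31 and 14.24. PSMD4, the ubiquitin receptor, read 13.66 and 13.06 (1.52-fold lower), just past the threshold. These 3 genes thus lay on either side of their control levels. Over the 8 measured genes of the base, ATPases included, 6 were higher (PSMC2 by 0.01) and 2 lower, with a median of 0.48. By 1.5-fold 4 were higher and 1 lower (62.5%, beside 43.3% of genes in the measured range).

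In the lid 5 of 6 measured genes were below their control value, and after the loess fit PSMD12 was too (-0.02). Of the 9735 genes in the measured range 4405 were below it. In the lid PSMD8 alone passed 1.5-fold (16.7%, beside 43.3% of genes in the measured range). PSMD8, which joins the lid last in assembly, read 14.24 in the control and 11.73 with the ANO5 siRNA, 5.70-fold lower and the lowest difference of all 43 genes. In the control 96.8% of the clusters read at or below it, and with the ANO5 siRNA 85.4%, so both values lay in the upper part of the arrays. PSMD11 differed by -0.37, PSMD3 by -0.35, PSMD6 by -0.16 and PSMD12 by 0.12. PSMD14, the protease that removes ubiquitin, read 12.35 and 12.30. The lid median was -0.26, and the mean, which PSMD8 pulls down, -0.55. PSMD7 and PSMD13 were not analysed here. SEM1, the small lid subunit whose symbol does not follow the pattern, read 4.12 and 4.15, near the bottom of both arrays (10.2% and 11.0% of clusters at or below).

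**Figure D3:**
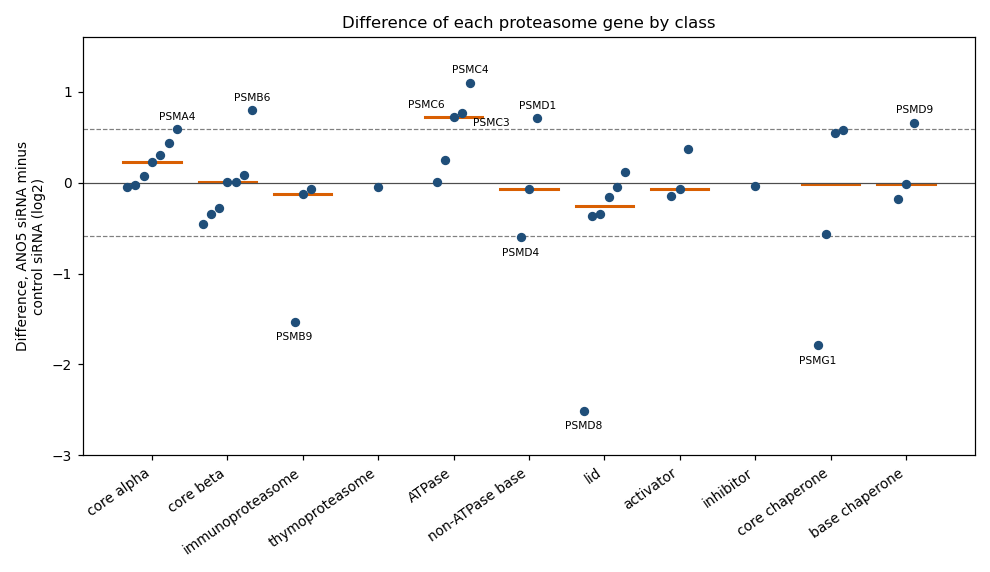
Difference in log2 signal (ANO5 siRNA minus control siRNA) of each of the 43 genes by class; orange lines are class medians for classes of 3 or more genes and dashed lines mark 1.5-fold. The ATPase median (0.72) is the one above the upper dashed line, and PSMD8, PSMG1 and PSMB9 lie apart from the rest of their classes.

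The core chaperones act in pairs, and the pairs differed in opposite directions. PSMG1 read 10.85 in the control and 9.06 with the ANO5 siRNA (3.46-fold lower), and its binding partner PSMG2 12.23 and 11.66 (1.48-fold lower). PSMG3 read 10.74 and 11.29 (1.46-fold higher), and its partner PSMG4 8.86 and 9.44 (1.49-fold higher). PSMG2, PSMG3 and PSMG4 thus lay just inside 1.5-fold. PSMG2 passed it in each scaling tried (-0.71 to -0.59), while PSMG3 and PSMG4 moved further inside, to 0.42 and 0.49 after the loess fit. Of the base chaperones PSMD9 read 8.90 and 9.56 (1.58-fold higher), while PSMD5 and PSMD10 differed by -0.02 and -0.18. PSMD9 did not pass 1.5-fold after the loess fit (0.57). POMP, which matures the core and is outside the symbol pattern, read 12.89 and 12.98.

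The activators and the inhibitor were all within 1.5-fold. PSME1, a subunit of the activator that interferon induces, read 11.00 and 10.93, and PSME3, the nuclear activator, 13.50 and 13.35. PSME4, an activator found in the nucleus and in the testis, read 10.82 and 11.19. PSMF1, which inhibits the core in vitro, read 12.75 and 12.71. PSME2 and PSMA8 were not analysed here.

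The 5 genes that match the pattern but lie outside these classes were PSMC3IP, PSME3IP1, PSMA3-AS1, PSMB8-AS1 and PSMG3-AS1. PSMC3IP, a factor of meiotic recombination, read 7.14 and 6.39 (1.68-fold lower) and is no part of the proteasome. PSME3IP1, a protein that binds the nuclear activator, differed by 0.33. The antisense transcripts PSMA3-AS1, PSMG3-AS1 and PSMB8-AS1 differed by 0.13, -0.25 and -0.28, and the last of these read 4.03 and 3.75, near the bottom of both arrays. None of the antisense transcripts passed 1.5-fold, and neither did the genes PSMA3, PSMG3 and PSMB8 beside which they are named.

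Genes of proteins that bind the proteasome lay mostly within 1.5-fold. Of 12 measured, 1 was higher and 1 lower by 1.5-fold (16.7%, beside 35.2% of all named genes), and the median was 0.06. PAAF1, which binds the ATPases during assembly of the base, read 9.65 and 8.67 (1.97-fold lower), and UBE3C, a ubiquitin ligase of the proteasome, 10.56 and 11.18 (1.54-fold higher). The ubiquitin receptor ADRM1 and the deubiquitinases UCHL5 and USP14 differed by -0.19, -0.30 and -0.48. Of the 3 measured ubiquitin and E1 genes, UBB, a ubiquitin gene, and UBA1, the main ubiquitin-activating enzyme, differed by 0.38 and 0.10. UBA6 differed by -0.36. Among 11 shuttle and segregase genes 2 were higher by 1.5-fold and 0 lower (18.2%, beside 43.3% of genes in the measured range). These were ZFAND2A, at 9.26 and 11.02 (3.39-fold), and ZFAND5, at 11.26 and 12.17 (1.88-fold), stress-linked zinc finger proteins that bind the proteasome.

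Of the transcription factors that act on proteasome genes or are related to those that do, NFE2L1 and NFE2L3 were lower by over 2-fold. NFE2L1 read 13.07 in the control and 11.96 with the ANO5 siRNA (2.16-fold lower). NFE2L3, a close relative, read 9.76 and 6.12 (12.5-fold lower). NFE2L2, the oxidative stress factor NRF2, read 11.92 and 11.76, and NGLY1, the glycanase that activates the NRF1 protein, 7.85 in the control with a difference of 0.15. KEAP1, which restrains NRF2, was 1.72-fold higher and MAFF, a small partner of these factors, 1.56-fold lower. Over the 9 measured genes of this list 1 was higher and 3 were lower by 1.5-fold, with a median of -0.16, which was -0.30 after the loess fit and -0.25 in the measured range. Past 1.5-fold were thus 44.4%, beside 35.2% of all named genes and 43.3% of those in the measured range. RNA of a factor does not give its protein level or activity, which were not measured.

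RefSeq promoters of 250 bases before to 50 after the start could be matched for 37 of the 43 genes. TGACNNNGC was found on either strand in 13 of the 37 (35.1%), beside 16.1% of the 27305 genes with a RefSeq promoter and 18.9% of the 11791 among them that the arrays name. CCAAT was found in 18 of 37 (48.6%), beside 39.7% and 42.8%. The matches to the motifs overlapped in 0 of the members' 45 promoters. The members had on average 1.22 annotated starts, all genes with a promoter 1.29 and those of the arrays 1.43, and a gene was counted if any of its promoters held the motif. The median difference was -0.02 for the 13 genes with TGACNNNGC (-1.79 to 1.10) and -0.05 for the 24 without (-2.51 to 0.77). The ranges overlapped. By 1.5-fold 4 of the 13 were higher and 2 lower, and of the 24 without it 2 were higher and 1 lower. Counting matches before the start only, these were 2 and 2 of 11 with the motif and 4 and 1 of 26 without. Past 1.5-fold either way were 35.2% of all named genes and 43.3% of those in the measured range. Such counts were not made for all array genes with and without TGACNNNGC. Neither the motif shares nor the counts past 1.5-fold were tested for a difference. The matches that lie wholly before the start, other than those of PSMG1 and PSMB9 printed above, follow with 8 bases on each side, TGACNNNGC or its reverse complement in capitals, on the gene's strand in GRCh38.p14.
PSMA4, chr15:78540652-78540676, plus strand: gggcacgaTGACTCTGCaccgcctc
PSMB3, chr17:38752629-38752653, plus strand: ctccgtttTGACTTTGCaaccaaac
PSMD3, chr17:39980762-39980786, plus strand: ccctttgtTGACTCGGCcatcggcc
PSMD12, chr17:67366726-67366750, minus strand: acaaaaccTGACGCTGCaggctgga
PSMD5, chr9:120843040-120843064, minus strand: gctacagtTGACACGGCcctaacgg
PSMD9, chr12:121888633-121888657, plus strand: ctactcctGCCGGGTCAccacaggc
PSMD9, chr12:121888680-121888704, plus strand: gcttccggTGACCCAGCtccgccct
PSME1, chr14:24136100-24136124, plus strand: ggcagggcTGACCCCGCctcctcca
PSME4, chr2:53971011-53971035, minus strand: cggcggctGCAGCGTCAccagcaga
PSMG2, chr18:12658691-12658715, plus strand: gtttcccgTGACCCCGCggccgctc

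PSME1 and PSMG2 hold the same 9 letters, TGACCCCGC, and differed by -0.07 and -0.57. PSMD9 holds 1 match on each strand and differed by 0.66, and PSMB3, PSMD3 and PSMA4 hold 1 match before the start and differed by -0.45, -0.35 and 0.59. Matches in PSMC4 and PSMD1, which were higher, lie after the start. A match shows only that these letters are in the window.

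Genes that work with the immunoproteasome in antigen presentation went both ways, 6 higher and 6 lower. TAP1, a peptide transporter gene, has 2 annotated starts. The first listed lies 488 bases from the start of PSMB9, on the opposite strand, in GRCh38.p14. TAP1 read 7.31 and 7.69, a difference of 0.38 beside -1.53 for PSMB9. TAP2 differed by -0.56. B2M, the light chain of MHC class I, read 13.76 and 14.63 (1.83-fold higher), while the peptide-trimming enzymes ERAP1 and ERAP2 were 2.41-fold and 1.61-fold lower. Of the 12 measured genes of the list 1 was higher and 2 were lower by 1.5-fold (25%, beside 35.2% of all named genes), with a median of 0.00. Of 11 interferon signalling genes 3 were higher and 1 lower, with a median of 0.39 (0.22 with the pseudocount), and 7 of the 11 lay in the measured range. Past 1.5-fold were 36.4% of them, beside 35.2% of all named genes. IFNGR2, a receptor subunit for interferon gamma, read 14.21 and 15.84 (3.1-fold higher), IRF9 6.68 and 7.99 (2.48-fold higher) and GBP2 7.42 and 8.05 (1.55-fold higher). IRF2 read 9.73 and 7.58 (4.44-fold lower), and IRF1, which induces PSMB9, 6.56 and 6.16.

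Other large complexes were set beside the core and the regulatory particle. The regulatory particle had a median of -0.02 over 14 genes, with quartiles of -0.30 and 0.60, and its SD over genes was 0.87, against 0.35 for the core particle. PSMD8 carried much of this spread, and without it the SD was 0.52. The COP9 signalosome, whose architecture resembles the lid, had a median of -0.19 over 10 genes (SD 0.63), with 4 lower and 0 higher by 1.5-fold, led by COPS7A at 10.01 and 8.67 (2.53-fold lower) and followed by COPS7B and COPS8 (1.96-fold and 1.69-fold). The translation factor eIF3, a further relative of the lid, had a median of -0.62 over 13 genes (SD 0.54), with 8 lower and 1 higher. EIF3M, EIF3D and EIF3J were 2.50-fold, 2.22-fold and 1.82-fold lower and EIF3A 1.55-fold higher. The CCT chaperonin had a median of -0.12 over 7 genes (SD 0.31), with CCT4 1.58-fold lower. The 48 cytosolic ribosomal protein genes and paralogues had a median of -0.08 (SD 0.45). Of these 48, 4 were lower and 0 higher by 1.5-fold, among them RPS27L, RPL19 and RPS12 (-1.52, -1.32 and -1.23). Past 1.5-fold either way were 40% of the COP9 genes, 69.2% of eIF3, 14.3% of CCT and 8.33% of the ribosomal genes. The share was 35.2% of all named genes and 43.3% of those in the measured range. After the loess fit the medians were -0.30 for the COP9 signalosome, -0.75 for eIF3, -0.23 for CCT, -0.16 for the 43 proteasome genes and -0.13 for ribosomal proteins. The ribosomal median, below that of the proteasome genes as deposited, was thus above it after the fit, while the order of the others stayed as it was. These differences between lists were not tested.

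**Figure D4:**
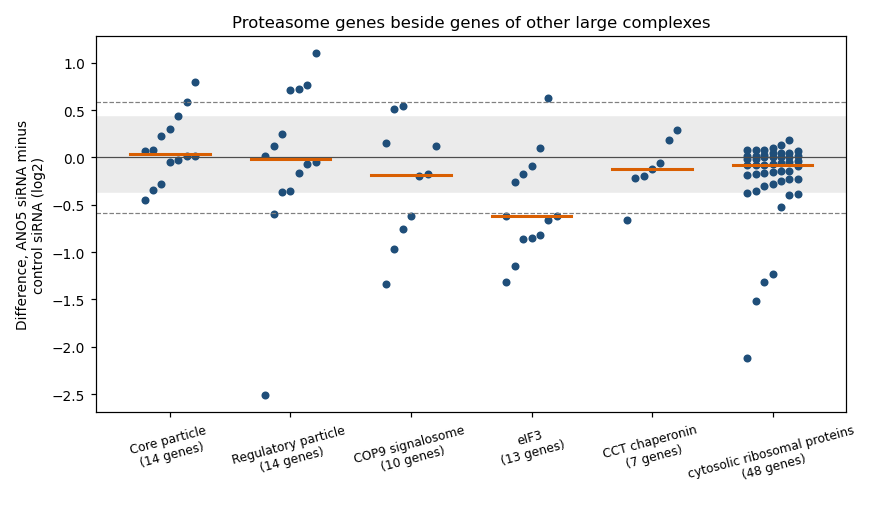
Difference in log2 signal (ANO5 siRNA minus control siRNA) of each gene of 6 sets; orange lines are medians, dashed lines mark 1.5-fold and the grey band spans the quartiles of all named genes (-0.36 to 0.43). The core particle stays within a narrow range, the regulatory particle holds PSMD8 far below its other members, and most eIF3 genes lie below the band.

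The targeted gene ANO5 was lower on the array labelled with its siRNA, at 6.83 in the control and 3.67 (difference -3.16). Its mean level lay below the measured range, only 4.68% of clusters read at or below it with the siRNA, and with the pseudocount the difference was -1.70, so its size is uncertain. Epithelial markers had median levels of 14.60 and 15.21 on the arrays, and 9 of 9 measured lay in the measured range. Gene by gene 6 were higher and 3 lower, with a median difference of 0.31 (0.205 at its lowest in the scalings tried). By 1.5-fold 3 were higher and 1 lower (44.4%, beside 35.2% of all named genes and 43.3% of those in the measured range). KRT19, ELF3 and CDH1 were 2.03-fold, 2.01-fold and 1.53-fold higher, and ESRP1 2.55-fold lower. Fibroblast and endothelial markers had median levels of 5.01 and 4.82, and 2 of 6 measured lay in the measured range.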

How the data were processed

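RNA of 2 cultures was read on 1 expression array each, and p-values were not computed. The deposited values, 1 per transcript cluster and array with 2 decimals, were read as log2 signal from their range (2.13 to 18.15). Per the submitters' processing notes the tool was Agilent Feature Extraction 12.0.3.1, but the identifiers in the table are not of the kind used on Agilent arrays, so how the signal was made is uncertain, and the background correction, normalization, log base and build are steps not given in the sources used here. Values were used as deposited, since the arrays' 75th percentiles over named genes differed by 0.02. No detection call was used, so background may limit folds of low values. Symbols came from the platform's annotation, and all 14526 named genes matched a RefSeq record by Entrez identifier. A gene with several clusters was read by the one with the highest mean, and the members have 1 each. Members and gene lists were chosen with earlier results of these data known. All 48 members were named. From each other list up to 3 genes each way past 1.5-fold in the measured range were named, with a fixed set of regulators. DDI2 and NLRC5 are among the genes of that set not analysed here. Summaries were tested on simulated data. Alternatives were 3 scalings, filters at the 33rd and 50th percentiles, a pseudocount of 32, the median over clusters, the mean, a 2-fold threshold and the upstream window alone. The array genes as a second set for the promoter shares were added after the data were seen, as were the spread of the regulatory particle without PSMD8 and the counts over the base. Python 3.11.15, numpy 2.4.6, pandas 2.3.3, statsmodels 0.14.6 and matplotlib 3.10.9 were used.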

Additional observations from a re-analysis of the deposited data

How the results depend on the processing

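With 1 array per group no library could be left out, and no paired analysis was possible because each group holds 1 array. A median or contrast counted as moved where it changed by 0.1 or more on the log2 scale. A count did so where the larger number was over 1.5 times the smaller. By that rule the change from 7 higher and 4 lower to 5 and 6 after loess did not count as moved. Loess (span 0.4) lowered most summaries: to -0.16 for the median of all 43 genes, 0.13 for alpha, -0.13 for beta, 0.59 for ATPase, -0.17 for the other base, -0.38 for lid, -0.16 for base chaperone, -0.20 for activator and -0.15 for core chaperone genes. It moved the median of all named genes by -0.04. The shift differed with the mean level and was not largest at the top. PSMB9 (mean level 7.53) went from -1.53 to -1.58, PSMD10 (11.88) from -0.18 to -0.32 and PSMA7 (14.66) from 0.30 to 0.21. The ribosomal median went from -0.08 to -0.13. By the mean in place of the median the immunoproteasome was -0.58, ATPase 0.57, lid -0.55, base chaperone 0.15, activator 0.05 and core chaperone genes -0.31. The pseudocount of 32 took the PSMB6 to PSMB9 contrast from 2.33 to 2.09. At 2-fold, 1 gene was higher, because the threshold changed. Leaving out the median over clusters, 81 of 98 summary values stayed within these limits, and 7 turned sign, all from a size under 0.1. Many of the 98 could not have moved, so this share does not measure stability. Scaling to the 75th percentile shifted every gene by the same -0.02, under the limit for a median, and cancelled in the partner contrasts. Among the 43 genes the looser percentile filter removed PSMB11 alone, whose class was not summarised, and the stricter one PSMB9 as well. Only the scalings and the pseudocount can move a single gene. These 4 settings gave 204 values for 51 genes, of which 195 did not cross 1.5-fold. The sign turned in 11 values of 6 genes, PSMA1, PSMB1, PSMB4, PSMB7, PSMC2 and PSMD12, whose differences were at most 0.12 in size. The exceptions were PSMA4, PSMB3, PSMD9, PSMG2 and PSMC3IP, the last at -0.58 with the pseudocount. Of 77 medians of the other lists, some under settings that likewise could not move them, 65 moved by less than 0.1. The sign turned in 2: fibroblast and endothelial markers went from -0.24 to 0.21 in the measured range, where 2 genes remain, and ubiquitin and E1 genes from 0.10 to -0.01 after loess. The median over clusters could not test the members, which have 1 cluster each. With motif matches before the start only, the medians were -0.07 with TGACNNNGC (11 genes) and -0.05 without (26 genes).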

Other observations

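PSMB8 and PSMB9 lie in 1 stretch of chromosome 6 with TAP1 and TAP2, with no other coding gene between neighbours in RefSeq. In the order TAP2, PSMB8, TAP1 and PSMB9 the differences were -0.56, -0.07, 0.38 and -1.53, so TAP2 and PSMB8 were both lower and the other adjacent pairs differed in sign. The PSMB8 difference was under 0.1 in size, so its sign carries little weight. PSMB5 and PSMB11, neighbours on chromosome 14, differed by -0.34 and -0.05, but PSMB11 (4.32 and 4.27) lay below the measured range.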
